A study of Mus musculus with 5 samples.

Results

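The p53 pathway genes described here were 10 genes: the transcription factor gene Trp53, its regulators Mdm2 and Mdm4, and the target genes Cdkn1a, Ccng1, Bax, Bbc3, Phlda3, Sesn2 and Trp53inp1. They are 10 of 55147 gene symbols in the table and of 12518 symbols that could be tested, and all 10 passed the filter on low values. The members were chosen on the difference between WT and C3G-KO cells, which was already known for these samples, so the values of the 10 genes in that comparison are a description and carry no test. Total RNA of mouse embryonic stem cells was sequenced in 3 WT samples and 2 C3G-KO samples. WT was the E14Tg2a parent line, which had not been through the knock-in or the drug selection. C3G-KO cells, genotype C3G-/-, were E14Tg2a cells in which a CRISPR knock-in of an EF1α-puromycin cassette replaced N-terminal exons of the C3G gene Rapgef1. Resistant colonies were grown up as clones, and the clone behind each sequenced C3G-KO sample was not given in the labels. Both groups were kept untreated on gelatin in GMEM with serum and LIF, the cytokine that maintains self-renewal. Effects of the genotype, of the selection and of a single clone cannot be told apart in this design.

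C3G is a guanine nucleotide exchange factor that activates small GTPases such as Rap1. p53 is a transcription factor that is held at a low protein level by MDM2, a ubiquitin ligase, and is restrained by the related protein MDM4. Stress signals stabilise p53, which then raises genes that stop the cell cycle, kill the cell or alter its metabolism. Mdm2 is itself such a target, so that p53 and MDM2 form a feedback loop, and p53 acts on Mdm2 through elements in the first intron. Embryonic stem cells are known for abundant p53.

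The stretches of DNA below show where p53 could act on the members with the largest difference or with the clearest match. A script searched for the 10-base p53 consensus, counted as matched with at most 1 mismatch, and since that consensus reads the same on the opposite strand both strands were covered. Capitals mark the matches. The first line is the end of Mdm2 intron 1, next to exon 2, taken from the GENCODE M21 transcript Mdm2-207. The other lines are bases upstream of RefSeq gene starts (GRCm38.p6), shown because they held a pair of matches no more than 13 bases apart.
Mdm2 intron 1, chr10:117710029-117710292, minus strand: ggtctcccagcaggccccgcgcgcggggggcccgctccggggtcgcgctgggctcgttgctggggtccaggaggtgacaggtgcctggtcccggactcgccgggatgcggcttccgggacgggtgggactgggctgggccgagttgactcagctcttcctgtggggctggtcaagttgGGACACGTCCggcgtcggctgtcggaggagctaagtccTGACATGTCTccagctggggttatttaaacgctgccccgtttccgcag
Bax upstream, chr7:45466899-45467148, minus strand: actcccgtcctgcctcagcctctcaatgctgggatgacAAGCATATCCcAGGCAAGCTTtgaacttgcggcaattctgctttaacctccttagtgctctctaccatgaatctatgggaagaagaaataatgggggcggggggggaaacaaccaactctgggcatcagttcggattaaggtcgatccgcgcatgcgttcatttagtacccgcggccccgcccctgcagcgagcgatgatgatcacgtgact
Ccng1 upstream, chr11:40755312-40755536, minus strand: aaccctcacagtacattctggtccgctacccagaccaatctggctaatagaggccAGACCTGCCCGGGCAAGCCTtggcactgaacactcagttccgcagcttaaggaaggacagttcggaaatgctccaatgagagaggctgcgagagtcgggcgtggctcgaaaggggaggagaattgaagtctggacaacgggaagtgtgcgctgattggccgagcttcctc
Cdkn1a upstream, chr17:29090729-29090975, plus strand: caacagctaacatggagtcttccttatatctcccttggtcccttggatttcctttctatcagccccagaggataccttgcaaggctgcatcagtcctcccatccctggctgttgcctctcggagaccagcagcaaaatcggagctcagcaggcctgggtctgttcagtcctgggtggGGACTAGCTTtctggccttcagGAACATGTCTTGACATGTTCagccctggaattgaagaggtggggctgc
The Mdm2 stretch held 2 matches separated by 28 bases, the nearer one 38 bases before exon 2. Among all RefSeq promoter stretches of the same 264 bases, 29.7% held at least 2 matches. Of 13 RefSeq promoter windows, from 250 bases before to 50 after the start, of 9 members, 9 held a match and 3 held a pair. Over all 32851 windows, 70% held a match and 6.72% held a pair. The windows of Phlda3 and Sesn2 held no match, and Trp53inp1 had no window in the table. A match here is a description of letters and was not tested for binding.

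Transcript values were summed by gene as TPM, a unit in which each level is taken per transcript length and as a share of its sample. Protein-coding genes held 28.8% to 31.8% of the TPM in WT and 18.6% and 26.0% in C3G-KO replicates 1 and 2, so that C3G-KO replicate 1 stood apart. TPM were therefore read both unscaled, as deposited, and scaled by median of ratios, which sets the typical gene equal between samples. The part of this gap in the deposited differences was not tested. Over the 12518 tested genes the median log2 fold change, C3G-KO minus WT on the log2(TPM + 1) scale, was -0.55 as deposited and 0.0052 after scaling. By limma at an adjusted p of 0.05, 1760 genes (14.1%) were higher and 2083 (16.6%) lower in C3G-KO after scaling, against 181 (1.45%) and 7109 (56.8%) as deposited. Over all tested genes, log2 fold change and transcript length correlated at -0.31 (Spearman), so longer transcripts tended to be lower in C3G-KO. After a correction for length and GC content, used as an alternative setting, the correlation was 0.0052. The part of this trend in the results was not tested. Rapgef1, the targeted gene, was at 11.56, 10.31 and 9.64 TPM in WT and at 3.92 and 5.55 TPM in C3G-KO, as deposited. Its log2 fold change after scaling was -0.41 (SE 0.059, adjusted p = 0.00444), and once trends in length and GC content were subtracted the adjusted p was 0.15. A sum over whole transcripts does not resolve the replaced exons, so it is a weak check of the knock-out. All 7 ES cell markers were expressed, summing to 2080 to 2200 TPM in WT and 1690 to 2200 TPM in C3G-KO. The 8 fibroblast markers summed to 4.5 to 6.3 TPM in WT and 1.76 to 2.9 TPM in C3G-KO, and 7 neural and mesoderm markers to 8.66 to 13 and 3.65 to 7.13 TPM. The 7 markers of extraembryonic endoderm summed to 3.63 to 4.52 and 3.49 to 6.79 TPM, and no marker was at 0 in every sample. These sums are TPM as deposited. After scaling, the fibroblast sum was at 4.73, 4.79 and 4.08 TPM in WT and at 2.85 and 3.21 TPM in C3G-KO, with no overlap, and the neural and mesoderm sum at 7.86 to 9.78 TPM and at 5.91 and 7.88 TPM, with overlap. The scaled sums of the ES cell and extraembryonic endoderm markers were higher in both C3G-KO samples than in any WT sample. Most of the ES cell sum was Dppa5a, at a scaled mean of 1150 TPM in WT and 1870 TPM in C3G-KO. Its log2 fold change was 0.71 after scaling and 0.054 after quantile normalization, and Pou5f1 and Utf1 overlapped between the groups. In the endoderm list, Dab2 was at a scaled mean of 1.66 TPM in WT and 3.37 TPM in C3G-KO. Members of a list did not all differ alike: fibroblast-list Pdgfra was at 0.453 TPM in WT and 1.12 TPM in C3G-KO on average as deposited. The part of these marker levels in the results was not tested. In bulk RNA, fewer cells expressing a gene and less RNA per cell cannot be told apart.

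Trp53 (chr11:69580359-69591873, plus strand) was among the more abundant transcripts of these cells and was lower in C3G-KO on both scales. As deposited it was at 112.38, 105.94 and 100.60 TPM in WT and at 46.15 and 68.43 TPM in C3G-KO. After scaling it was at 84.3, 87 and 91.3 TPM in WT and at 74.7 and 75.6 TPM in C3G-KO, so the groups did not overlap but lay close together. The scaled mean was 87.5 ± 3.51 (SD, n = 3) in WT and 75.2 ± 0.665 (SD, n = 2) in C3G-KO, a ratio of 0.859. In each WT sample Trp53 stood above 95.9% to 96.1% of tested genes, and in each C3G-KO sample above 94.7% to 94.8%. The coding transcript Trp53-203 made up 76.2% to 77.9% of Trp53 TPM in WT and 77.9% and 78% in C3G-KO. The processed pseudogene Trp53-ps, whose reads could be confused with those of Trp53, stayed at or below 0.47 TPM in every sample.

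Mdm2 showed the largest difference of the 10 genes. As deposited it was at 72.15, 65.42 and 55.00 TPM in WT and at 18.28 and 27.90 TPM in C3G-KO. After scaling the WT samples were at 54.1, 53.7 and 49.9 TPM and the C3G-KO samples at 29.6 and 30.8 TPM. Every C3G-KO sample was therefore below every WT sample by a gap far wider than the spread within either group. The scaled mean was 52.6 ± 2.33 (SD, n = 3) in WT and 30.2 ± 0.885 (SD, n = 2) in C3G-KO, a ratio of 0.575. The log2 fold change was -0.78 (SE 0.072) after scaling and -1.46 as deposited. It was -0.75 without C3G-KO replicate 1. Mdm2 stood above 92.8% to 93.9% of tested genes in the WT samples and above 87.3% to 87.5% in the C3G-KO samples.

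Mdm4 (chr1:132959484-133030561, minus strand), the partner of MDM2 that binds and masks the p53 activation domain, differed less. After scaling it was at 60, 49.6 and 44.8 TPM in WT and at 44 and 41.2 TPM in C3G-KO. The groups did not overlap, but WT replicate 3 lay just above C3G-KO replicate 1. The log2 fold change was -0.26 (SE 0.13) after scaling, and it was -0.15 without WT replicate 1. Mdm2 and Mdm4 lay at overlapping levels in WT, whereas in C3G-KO both samples had Mdm2 below Mdm4. The ratio of Mdm2 to Mdm4 was 0.903, 1.08 and 1.11 in WT and 0.672 and 0.749 in C3G-KO. Transcripts with a retained intron made up 37.8% to 46.4% of Mdm4 TPM in WT and 40% and 39.9% in C3G-KO, with overlapping groups.

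**Figure D1:**
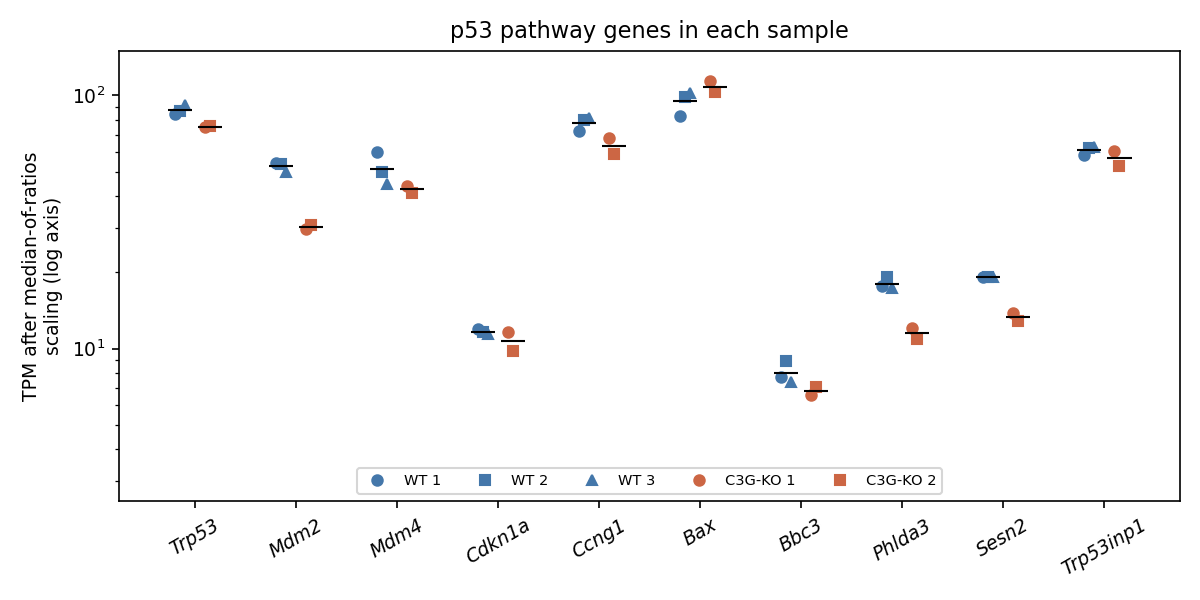
Level of each of the 10 p53 pathway genes in each sample, in TPM after median-of-ratios scaling on a log axis, with 1 point per sample of WT (n = 3) and C3G-KO (n = 2). Mdm2, Phlda3 and Sesn2 have both C3G-KO points well below the 3 WT points, Bax has them above, and Cdkn1a and Trp53inp1 overlap.

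Of the genes linked to cell cycle arrest, Cdkn1a overlapped between the groups after scaling and Ccng1 was lower in C3G-KO. Cdkn1a (chr17:29090976-29100727, plus strand) encodes p21, the inhibitor of cyclin-dependent kinases through which p53 halts the cycle. As deposited it was at 15.92, 14.10 and 12.56 TPM in WT and at 7.18 and 8.84 TPM in C3G-KO. After scaling it was at 11.9, 11.6 and 11.4 TPM in WT and at 11.6 and 9.77 TPM in C3G-KO, so C3G-KO replicate 1 lay inside the WT range. The log2 fold change of Cdkn1a was -0.12 (SE 0.084), moving to 0.0023 without C3G-KO replicate 2 and to -0.23 without C3G-KO replicate 1. Ccng1 (chr11:40748552-40755311, minus strand) encodes cyclin G1, which recruits a phosphatase to MDM2. It was at 72.2, 80 and 81.1 TPM in WT and at 67.6 and 58.7 TPM in C3G-KO after scaling, with no overlap. The log2 fold change of Ccng1 was -0.30 (SE 0.10) after scaling and -0.99 as deposited, and leaving out 1 sample at a time moved the scaled value between -0.40 and -0.19.

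The cell death genes went in opposite directions after scaling. Bax (chr7:45461697-45466898, minus strand) encodes a protein that permeabilises the outer mitochondrial membrane, and it was the single member with higher scaled levels in C3G-KO. It was at 83.2, 98.7 and 102 TPM in WT and at 114 and 103 TPM in C3G-KO, groups that were separated by less than the spread within WT. The log2 fold change of Bax was 0.20 (SE 0.12) after scaling, but -0.50 as deposited and -0.12 after quantile normalization, so its direction depended on the scaling. As deposited, Bax was at 110.94, 120.17 and 112.57 TPM in WT and at 70.47 and 92.73 TPM in C3G-KO. Bbc3 (chr7:16308393-16318205, plus strand) encodes PUMA, which neutralises the pro-survival BCL2 proteins. It was low in every sample, at 7.74, 8.91 and 7.38 TPM in WT and 6.54 and 7.05 TPM in C3G-KO after scaling. The groups of Bbc3 did not overlap, with a log2 fold change of -0.21 (SE 0.09) that was -0.092 after the length and GC correction.

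Among the remaining targets, Phlda3 and Sesn2 were lower in C3G-KO by a wide margin and Trp53inp1 was not. Phlda3 (chr1:135766119-135769136, plus strand) encodes a small PH domain protein that competes with the kinase AKT for membrane lipids. Its scaled levels were 17.6, 19.2 and 17.3 TPM in WT and 12.1 and 10.9 TPM in C3G-KO. That is a log2 fold change of -0.60 (SE 0.079), or a ratio of means of 0.64, and the groups were far apart. Sesn2 (chr4:132492032-132510501, minus strand) encodes sestrin 2, a leucine sensor that restrains mTORC1. It was at 19.2 ± 0.0274 TPM (SD, n = 3) in WT and at 13.8 and 12.9 TPM in the C3G-KO samples. The log2 fold change of Sesn2 was -0.49 (SE 0.062) after scaling and -0.26 with the length and GC correction added. Trp53inp1 (chr4:11156431-11174379, plus strand) encodes a nuclear protein that promotes phosphorylation of p53. It was at 58, 62.2 and 62.7 TPM in WT and at 60.3 and 52.8 TPM in C3G-KO, so C3G-KO replicate 1 lay inside the WT range. Its log2 fold change was -0.11 (SE 0.088), and -0.012 without C3G-KO replicate 2.

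After scaling, 7 of the 10 members had both C3G-KO samples below all WT samples, 1 had them above and 2 overlapped. Over all tested genes, 29.3% lay below in this way and 29.5% lay above. As deposited, all 10 lay below, as did 75.7% of all tested genes, while 1.49% of genes lay above. The median log2 fold change of the members was -0.24 after scaling and -0.92 as deposited. Nothing is read from these counts, since the members were chosen on this comparison. Mdm4, Cdkn1a, Bax and Sesn2 overlap other annotated genes, and since the strand setting was not given, reads from the overlaps cannot be told apart. Across 15 alternative settings the fold change was negative in all 15 for 8 members, in 14 for Cdkn1a and in 2 for Bax. All settings refit the same samples or a part of them, so these counts too are only a description.

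**Figure D2:**
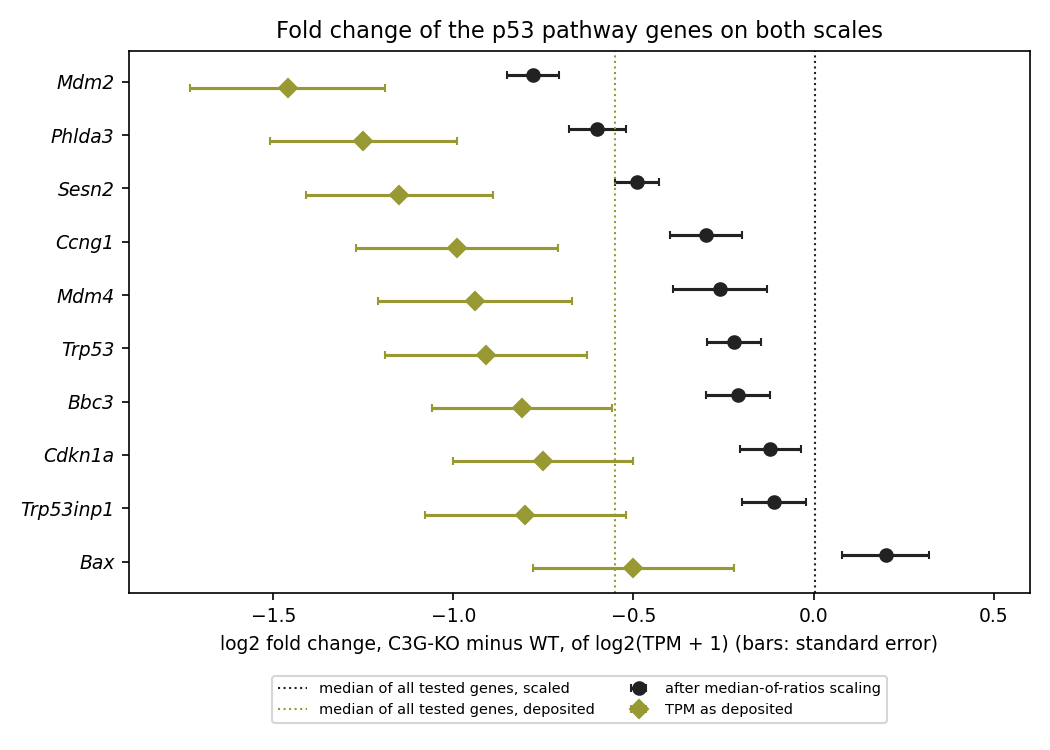
Log2 fold change (C3G-KO minus WT, of log2(TPM + 1)) of each p53 pathway gene after median-of-ratios scaling (circles) and as deposited (diamonds), with bars of 1 standard error and dotted lines at the median of all 12518 tested genes on each scale. Mdm2 lies lowest on both scales (-0.78 and -1.46) and Bax highest (0.20 and -0.50).

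A ratio between genes of the same sample is free of scaling between samples. Per molecule of Trp53 transcript, the C3G-KO samples held less Mdm2, Phlda3 and Sesn2 and more Bax than any WT sample. The TPM ratio of Mdm2 to Trp53 was 0.642, 0.618 and 0.547 in WT and 0.396 and 0.408 in C3G-KO. The mean was 0.602 ± 0.0495 (SD, n = 3) in WT and 0.402 ± 0.00821 (SD, n = 2) in C3G-KO. For Phlda3 the ratio was 0.208, 0.22 and 0.189 in WT and 0.162 and 0.144 in C3G-KO. For Sesn2 it was 0.228, 0.22 and 0.21 in WT and 0.184 and 0.171 in C3G-KO. The ratio of Bax to Trp53 was 0.987, 1.13 and 1.12 in WT and 1.53 and 1.36 in C3G-KO. The ratios of Mdm4, Cdkn1a, Ccng1, Bbc3 and Trp53inp1 overlapped between the groups, with C3G-KO means at 0.946 to 1.08 of the WT means. All of these ratios share Trp53 as the denominator, and they are not free of differences in length and GC content. How many of all tested genes separate the groups by their ratio to Trp53 was not counted. The members were chosen on this comparison, so the ratios are a description. With the length and GC correction, Sesn2 was at a log2 fold change of -0.26 and Trp53 at -0.21, so Sesn2 hardly differed from Trp53, while Mdm2 was at -0.82, Phlda3 at -0.53 and Bax at 0.11.

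**Figure D3:**
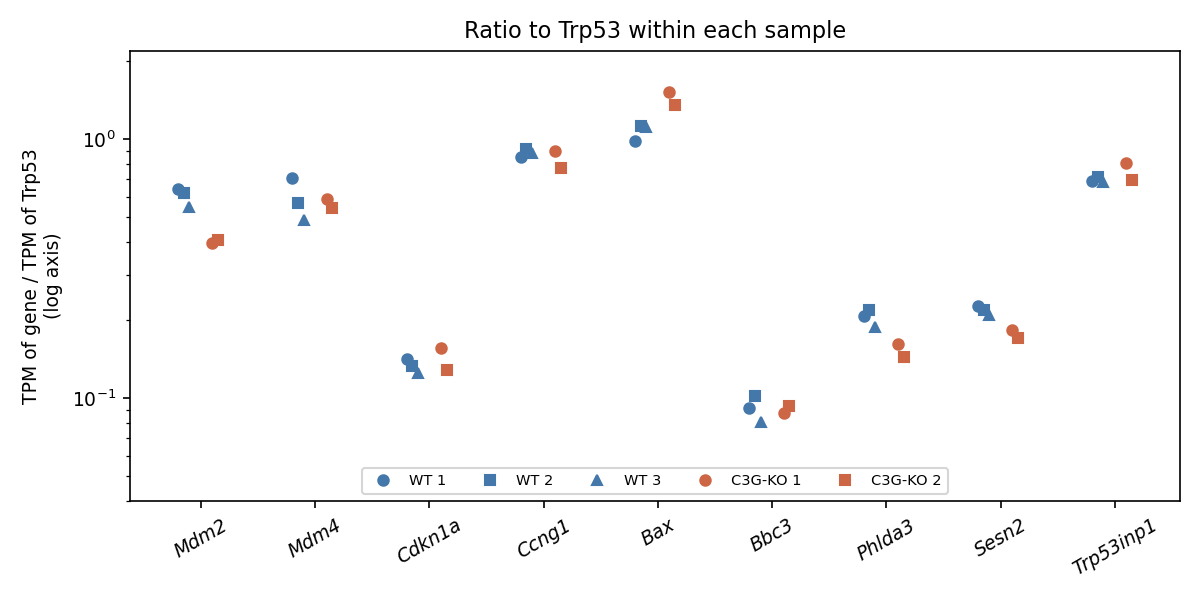
TPM of each of the other 9 genes divided by the TPM of Trp53 in the same sample, on a log axis, with 1 point per sample. Mdm2 lies at 0.547 to 0.642 in WT and at 0.396 and 0.408 in C3G-KO, and Bax lies higher in C3G-KO (1.36 and 1.53) than in WT (0.987 to 1.13).

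Mdm2 has 9 annotated transcripts, and their start sites separate an upstream promoter at exon 1 from starts further down. The gene lies on the minus strand at chr10:117688875-117710758, with exon 1 at chr10:117710552-117710758 and exon 2 at chr10:117709946-117710028 (GRCm38). Transcript levels below are TPM as deposited. The full-length coding transcript Mdm2-201, which starts in exon 1, was at 37.25, 35.54 and 27.3 TPM in WT and at 10.09 and 16.22 TPM in C3G-KO. It made up 51.6%, 54.3% and 49.6% of Mdm2 in WT and 55.2% and 58.1% in C3G-KO, a slightly higher share with no overlap. Mdm2-206 is a noncoding transcript that starts inside the intron 1 stretch printed above, at position 117710078, beside the second capital run. It was at 6.7, 6.31 and 6.6 TPM in WT and at 0.44 and 0.74 TPM in C3G-KO. Its share of Mdm2 was 9.29%, 9.65% and 12% in WT and 2.41% and 2.65% in C3G-KO. With a scaled ratio of C3G-KO to WT of 0.142, Mdm2-206 differed far more than the gene as a whole (0.575). Mdm2-207 starts in the same intron, at position 117710292, and was at 4.8, 4.16 and 3.87 TPM in WT and 1.88 and 2.79 TPM in C3G-KO. Its share was higher in C3G-KO, at 10.3% and 10% against 6.36% to 7.04%, so the shares of the 2 intronic starts differed in opposite directions. Both transcripts were singled out after their values were seen.

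Transcripts that start past exon 1, which are Mdm2-204, Mdm2-206, Mdm2-207 and Mdm2-209, together made up 30.7%, 30.6% and 37.1% of Mdm2 in WT and 27.3% and 23.2% in C3G-KO. The mean was 32.8% ± 3.72 (SD, n = 3) in WT and 25.2% ± 2.93 (SD, n = 2) in C3G-KO, a difference of -7.54 percentage points. Mdm2-204, a retained-intron transcript, starts far from the p53 elements. Without it, a choice made after seeing the data, the shares were 19.8%, 18.7% and 25.8% in WT and 14.9% and 14.8% in C3G-KO. Both coding transcripts start in exon 1, and the coding share was 53.3% to 57.5% in WT and 58.9% and 59.9% in C3G-KO. Mdm2 transcript values are estimates from reads that overlapping transcripts share, so a change of one can be traded for another by the estimation.

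**Figure D4:**
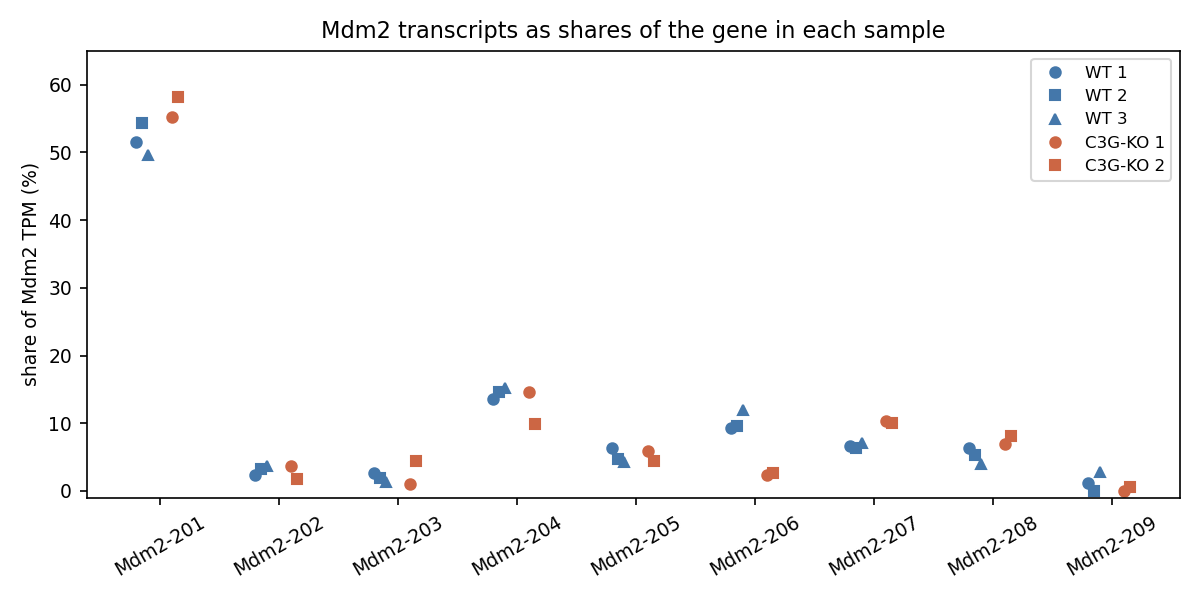
Share of Mdm2 TPM on each of its 9 annotated transcripts in percent, with 1 point per sample of WT (n = 3) and C3G-KO (n = 2). Mdm2-206 lies at 9.29% to 12% in WT and at 2.41% and 2.65% in C3G-KO, and Mdm2-207 lies higher in C3G-KO.

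Parp2, Spred1, Noct and Lama5 were among the 5 tested genes whose scaled levels followed Mdm2 most closely over the 5 samples. Likeness was the Euclidean distance between centred log2(scaled TPM + 1) values, over genes with a mean of at least 10 TPM, and it ranged from 0.0478 for Parp2 to 0.0792 for Lama5. Parp2 encodes a DNA damage-activated ADP-ribose polymerase. The log2 fold changes of these 4 genes were -0.81 to -0.75, a likeness to Mdm2 that was fixed by how they were picked. With the length and GC correction Lama5 was at -0.29, apart from Mdm2 at -0.82, and Parp2, Spred1 and Noct were at -0.84, -0.75 and -0.66.

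The wider pathway was read from 5 lists, with 62 genes other than the members, of which 58 were tested. Among them 10 rose, 22 fell and 26 did not pass the test after scaling, at a median log2 fold change of -0.16 against 0.0052 for all tested genes. The 10 that rose were 17.2% and the 22 that fell 37.9% of the 58, beside 14.1% and 16.6% of all tested genes. The lists were written with earlier results of these data known, so these shares and those of each list below are a description. The scaled sum of the fibroblast markers was also lower in C3G-KO, and its part in these counts was not tested. As deposited none rose, also at an unadjusted p under 0.05 by limma, and 39 fell (67.2%), beside 1.45% and 56.8% of all tested genes. After the length and GC correction 12 rose and 19 fell. Without WT replicate 2 the count that rose was 2, and without C3G-KO replicate 2 the count that fell was 14.

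Of the genes for arrest and stress response, 9 of 10 fell and 1 rose, at a median of -0.51. These were 90% and 10% of the list, beside 16.6% that fell and 14.1% that rose of all tested genes. As deposited 9 fell (90%), beside 56.8% of all tested genes. After the length and GC correction 8 fell and 1 rose, beside 1909 and 1766 of all 12518 tested genes. Sfn, which encodes stratifin, a protein that keeps cyclin B out of the nucleus, fell from 54.12, 53.23 and 56.96 TPM in WT to 6.33 and 7.15 TPM in C3G-KO. These Sfn levels are TPM as deposited. The log2 fold change of Sfn was -2.20 after scaling (SE 0.14, adjusted p = 0.000377) and -2.85 as deposited. Plk2, a polo-like kinase induced by p53, had deposited levels of 38.74, 37.79 and 33.95 TPM in WT and 9.74 and 13.61 TPM in C3G-KO. Its log2 fold change was -0.93 after scaling (SE 0.067, adjusted p = 0.000463) and -1.59 as deposited. Ccng2, a cyclin G1 relative, was the gene that rose after scaling (0.46, adjusted p = 0.00455), with -0.11 as deposited. Gtse1, which restrains p53, was also among those that fell (-0.55, adjusted p = 0.0026). It was named after its value was seen, because its role is opposite to that of the list.

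Of 16 genes for cell death, 13 were tested, and 6 fell, 1 rose and 6 did not pass the test, while as deposited 11 fell and none rose. The shares that fell were 46.2% after scaling and 84.6% as deposited, beside 16.6% and 56.8% of all tested genes. Perp is a membrane protein of desmosomes and a p53 target in apoptosis. It had deposited levels of 36.58, 37.19 and 34.00 TPM in WT and 3.81 and 4.61 TPM in C3G-KO. The log2 fold change of Perp was -2.21 after scaling (SE 0.10, adjusted p = 0.000121) and -2.83 as deposited. Tnfrsf10b, which encodes a death receptor for TRAIL, had deposited levels of 15.10, 13.23 and 11.97 TPM in WT and 1.63 and 2.13 TPM in C3G-KO. Its log2 fold change was -1.78 after scaling (SE 0.066) and -2.33 as deposited. For Perp, Tnfrsf10b and Sfn the groups were far apart on both scales. Siva1, an apoptosis inducer, rose by 0.34 after scaling (adjusted p = 0.0377), with -0.34 as deposited and an adjusted p of 0.0635 after the length and GC correction. Bcl2l1, which protects cells from death, fell as well (-0.71, adjusted p = 0.00135). Mcl1, another protective gene of this list, went the other way after scaling without passing the test (0.33, adjusted p = 0.0608). It was at -0.36 as deposited, and its adjusted p after the length and GC correction was 0.0283. Both Bcl2l1 and Mcl1 were named after their values were seen.

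Of 13 upstream activators of p53, 4 rose, 2 fell and 7 did not pass the test, at a median of 0.19, while as deposited 6 fell and none rose. The share that rose was 30.8% and the share that fell 15.4%, beside 14.1% and 16.6% of all tested genes, and the 46.2% that fell as deposited lay below the 56.8% of all genes. Cdkn2a, which has an ARF product that binds MDM2, had deposited levels of 3.59, 4.22 and 3.51 TPM in WT and 0.76 and 1.18 TPM in C3G-KO. Its log2 fold change was -0.86 after scaling (SE 0.10, adjusted p = 0.00203) and -1.28 as deposited. These levels are low, and a sum over all Cdkn2a transcripts does not separate ARF from other products of the gene. The acetyltransferase gene Crebbp fell by 0.36 on the log2 scale (adjusted p = 0.0436, and 0.225 after the length and GC correction). The checkpoint kinase gene Chek2 rose by 0.43 (adjusted p = 0.00677), with -0.19 as deposited. Rpl11, a ribosomal protein that binds MDM2, rose by 0.62 (adjusted p = 0.0315), with -0.074 as deposited and 0.11 after quantile normalization. Rpl11 has pseudogene copies, so its value is uncertain.

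Of 9 tested genes for p53 stability and the p53 family, none rose by limma, with 1 higher at an unadjusted p under 0.05, 2 fell (22.2%, beside 16.6% of all tested genes) and 7 did not pass the test. The p53 relative Trp73 (-0.36, adjusted p = 0.0174) and Ppp1r13b, which encodes a p53-binding ASPP protein (-0.32, adjusted p = 0.0224), fell. After the length and GC correction neither passed, at adjusted p of 0.258 and 0.302, and both were below 3 TPM on average. Of 13 metabolism and repair genes, 4 rose, 3 fell and 6 did not pass the test, at a median of -0.019, while as deposited 7 fell and none rose. The share that rose was 30.8% and the share that fell 23.1%, beside 14.1% and 16.6% of all tested genes. As deposited 53.8% fell, near the 56.8% of all tested genes. Gls2, mitochondrial glutaminase, rose by 0.48 (SE 0.11, adjusted p = 0.019), and Tigar, which lowers glycolysis, by 0.31 (adjusted p = 0.0119). As deposited their log2 fold changes were -0.053 and -0.31. Gpx1, glutathione peroxidase, had deposited levels of 98.74, 102.21 and 103.45 TPM in WT and 38.48 and 55.11 TPM in C3G-KO. Its log2 fold change was -0.43 after scaling (adjusted p = 0.031) and -1.12 as deposited. Gpx1 did not pass in 6 of 15 alternatives, among them without WT replicate 2 (0.086), WT replicate 3 (0.051), C3G-KO replicate 1 (0.0928) or C3G-KO replicate 2 (0.113). Polk, a translesion DNA polymerase, fell by 0.48 on the log2 scale (adjusted p = 0.0151).

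**Figure D5:**
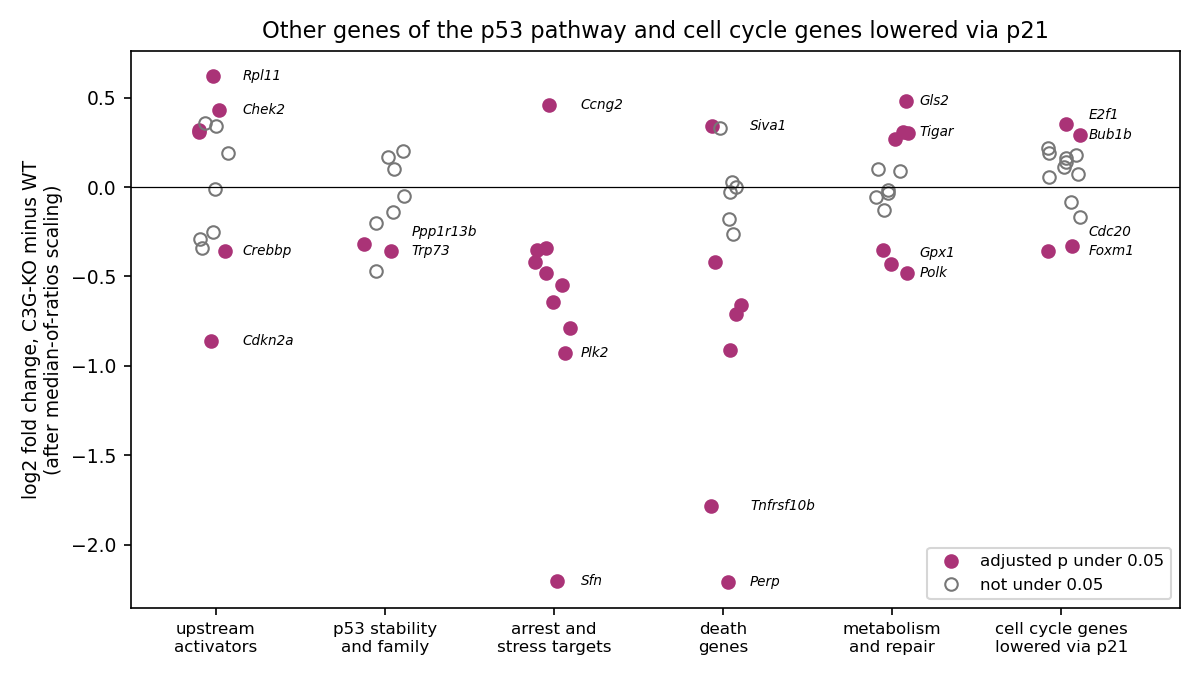
Log2 fold change (C3G-KO minus WT, after median-of-ratios scaling) of each tested gene in 5 lists of the p53 pathway and in the cell cycle list, with filled points for an adjusted p under 0.05. Sfn, Perp and Tnfrsf10b stand lowest, at -2.20, -2.21 and -1.78. Below 0 lie 9 of 10 arrest and stress genes, and 6169 of all 12518 tested genes.

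The last list held 14 cell cycle genes that p53 is known to lower through p21 and the DREAM repressor complex. After scaling 2 rose, 2 fell and 10 did not pass the test, at a median log2 fold change of 0.13. Each count was 14.3% of the list, close to the 14.1% and 16.6% of all tested genes. The mitotic regulators Foxm1 (-0.36, adjusted p = 0.0174) and Cdc20 (-0.33, adjusted p = 0.0481) fell. The S-phase factor E2f1 (0.35, adjusted p = 0.0183) and the spindle checkpoint kinase Bub1b (0.29, adjusted p = 0.038) rose, with -0.19 and -0.39 as deposited. As deposited none rose, also at an unadjusted p, and 6 fell (42.9%, below the 56.8% of all tested genes). No call in this list held in every leave-one-out fit: without WT replicate 2, 0 rose and 0 fell, with 2 and 2 at an unadjusted p under 0.05.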

How the data were processed

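RNA of 3 WT and 2 C3G-KO samples was sequenced on a NovaSeq6000 with paired ends. Per the labels and the methods, the authors checked reads with FastQC 0.11.7, aligned them to GRCm38 with STAR 2.5.1b, and the submitters' processing notes name RSEM 1.2.31. The deposited values are TPM for 142647 Ensembl transcripts, summing to 999998 to 1000001 per sample and rounded to 2 decimals. TPM keep no depth, so depth and counting error are unknown, and the strand setting was not given in the sources used here. Small RNAs are included in the TPM.

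GENCODE M21 matched 141524 transcripts, which were summed by symbol, and 1123 did not match. Genes at 1 TPM or more in at least 2 samples were kept. Samples were scaled by median of ratios (factors 1.333, 1.218, 1.102, 0.6177 and 0.9046 for WT 1 to 3 and C3G-KO 1 and 2) and compared with limma 3.58.1 (R 4.3.3) on log2(TPM + 1), mean-variance trend, two-sided, with Benjamini-Hochberg adjustment over all tested genes at 0.05. The code was tested on simulated data that held no trend in length or GC content, so that test does not vouch for the calls here. P-values measure only the spread between these samples. The members and lists were chosen with earlier results of these data known. Named were the members, Rapgef1, per list at most 2 largest rises and 2 largest falls that passed, the 5 genes nearest to Mdm2, of which 1 is not reported here, and the exceptions the text marks. Rfwd2, an older symbol of Cop1, was listed beside it and counted once. Alternatives were no scaling, quantile normalization, pseudocounts of 0.1 and 5, no filter, 5 TPM, no trend, a length and GC correction (smooth trend, span 0.5), a replicate block with and without that correction, and each sample left out. Promoter sequences are from RefSeq.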

Additional observations from a re-analysis of the deposited data

How the results depend on the processing

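With 2 and 3 samples a group, 1 library can decide a call, and TPM give no depth to separate low counting from low expression. A lone C3G-KO sample was assumed to vary like the other group. The number of genes higher in C3G-KO, 1760, became 181 for TPM as deposited and 1122 with a filter of 5 TPM, and ranged from 909 (without WT replicate 2) to 1579 with 1 sample left out, with 981 and 990 without C3G-KO replicate 1 and 2. The number lower, 2083, became 7109, 1348 and 1385 (without WT replicate 2) to 1880. In the other pathway lists, the 10 that rose became 0 as deposited, 6 with no filter, 6 with a filter of 5 TPM, and 2 (without WT replicate 2) to 7 with 1 sample left out, including 6 without WT replicate 1 and 5 without C3G-KO replicate 1. The 22 that fell became 39 as deposited and 14 (without C3G-KO replicate 2) to 22. Of the cell cycle genes, the 2 that rose became 0 as deposited, 1 with quantile normalization, 0 with no filter (2 at an unadjusted p under 0.05 by limma), 1 with a filter of 5 TPM and 0 to 1 with a sample left out. The 2 that fell became 6 as deposited, 1 with pseudocount 5, 0 with no filter (2 unadjusted) and 0 to 2 with a sample left out. Rapgef1 was at -0.15 (adjusted p = 0.15) after the length and GC correction. The median of the 10 members was -0.92 as deposited and -0.43 with quantile normalization. As deposited, Rpl11 (-0.074), Chek2 (-0.19), Ccng2 (-0.11), Siva1 (-0.34), Gls2 (-0.053), Tigar (-0.31), E2f1 (-0.19) and Bub1b (-0.39) turned negative. The causes were not tested. Perp, Sfn, Plk2 and Tnfrsf10b passed the test in all 15 alternatives, while Siva1 did not pass in 11, Bub1b in 9, Cdc20, Crebbp and Rpl11 in 8 each and Gpx1 in 6. The difference in share of Mdm2 starts past exon 1 lay between -9.61 and -5.39 percentage points with 1 sample left out, and with coding transcripts alone it gave no value because both start in exon 1.

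Replicate numbers 1 and 2 occur in both groups, but nothing in the labels ties them to a shared batch. Deviations of same-numbered samples from their group means correlated at -0.179 and 0.181. With 2 C3G-KO samples their deviations are exact opposites, so these values cannot decide whether same-numbered samples were paired. With the replicate block 1488 genes were higher and 1814 lower. In the other pathway lists 5 rose, and of the cell cycle genes 0 rose (3 unadjusted) and 1 fell. With the replicate block and the length and GC correction together, 1 of the cell cycle genes fell and Rapgef1 was at -0.12 (adjusted p = 0.345).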
